A study of Mus musculus with 6 samples.

Results

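The potassium, sodium and pacemaker channel genes described here are all protein-coding genes whose symbol is built from Kcn, a family letter and a number, from Scn, a number and the letter a or b, or from Hcn and a number. There were 111 such genes among the 54232 genes of the table. Of the 111, 40 had a mean normalised read count of at least 10 over the 6 libraries and were tested, 54 had reads but lay below that mean, and 17 had no read in any library. Values are given by name for 34 of the 40, and counts are over all 40. A normalised read count is the number of reads of a gene divided by the size factor of its library. Nuclear RNA was sequenced from 3 UtyGT and 3 WT preparations of cardiomyocyte nuclei, each made of 150000 nuclei from frozen left ventricles that were stained for PCM1, a protein of the cardiomyocyte nuclear surface, and sorted by flow cytometry. Libraries came from a stranded total RNA kit for small inputs, and the comparison asked how nuclear transcript levels differ in mice with a trapped Uty gene. UtyGT mice were adult males carrying the gene trap Uty Gt(XS0378)Wtsi in the Y-linked gene Uty, introduced through E14Tg2a.4 embryonic stem cells of 129P2/OlaHsd origin and crossed for many generations to C57BL/6J females. WT mice were adult males with an untrapped Y chromosome of 129P2/OlaHsd origin, crossed to C57BL/6J females in the same manner, so that both groups shared the source of the Y chromosome and the autosomal background. The trap was a single insertion from a single stem cell line and was present in every cell of the mouse.

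The libraries of each group bear the numbers 11, 15 and 31. The labels say neither which number was which day of preparation nor how many animals gave a library, so that p-values here reflect only how far these libraries scattered, part of which may be technical.

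Voltage-gated sodium channels open first in a heartbeat and carry the fast upstroke of the ventricular action potential. Voltage-gated potassium channels then open to repolarise the membrane, in the mouse mainly through transient outward and ultrarapid currents, while inward rectifiers hold the resting potential and pacemaker (HCN) channels, opened by hyperpolarisation, drive spontaneous beating in nodal cells. Most of these channels are assembled from a pore subunit and auxiliary subunits that set its gating and its traffic to the membrane.

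Gene reads per library ranged from 18204752 to 23252887. Uty was lower in all 3 UtyGT libraries, with 22.1, 14.1 and 19.9 normalised read counts in UtyGT 11, 15 and 31, against 1212, 1332 and 1314 in WT 11, 15 and 31 (log2 fold change −6.05, SE 0.18, limma adjusted p = 0.000113). Both number 15 libraries stood apart from the other 4 on the first principal component, which held 73.3% of the variance, and they had fewer reads of leukocyte markers. The summed normalised read count of 6 leukocyte markers was 563 in UtyGT 15 and 1216 in WT 15, against 6398 to 18307 in the other 4 libraries. Ventricular cardiomyocyte markers were abundant in every library, and titin alone (Ttn) averaged 1266200 ± 102871 in UtyGT and 1314260 ± 183747 in WT (SD, n = 3 each). The sum of 7 atrial markers was 689, 760 and 1288 in UtyGT 11, 15 and 31, against 2380, 3337 and 1151 in WT 11, 15 and 31, and none of the 7 passed the test.

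Several potassium channel genes of the resting and repolarising currents, but not all of them, were abundant in these nuclei. To compare genes with each other, the normalised read count was divided by the length of the union of annotated exons, in kb. On that scale Kcnj2, an inward rectifier gene, stood at position 325 among all 16202 genes tested, with 1053 ± 153 per kb in UtyGT and 1080 ± 572 per kb in WT (SD, n = 3 each). Kcng2 had 948 ± 143 per kb in UtyGT and 913 ± 74.6 in WT, Kcnip2 had 904 ± 143 in UtyGT and 792 ± 99.8 in WT, and Kcnk3 had 810 ± 31.5 in UtyGT and 732 ± 138 in WT. In WT the ranges of Kcnj2, Kcng2, Kcnip2 and Kcnk3 per kb all overlapped. In UtyGT they overlapped too, except that every value of Kcnk3 was below every value of Kcnj2. Apart from Kcnk3 against Kcnj2 in UtyGT, the order of these genes is not beyond the spread of the libraries. Kcnh2, Kcnj11, Kcnq1, Kcnj3 and Kcnj5 followed them, at positions 687, 727, 1058, 1406 and 2020 among all genes. Pore genes of the transient outward current stood lower, with Kcnd2, Kcnd3 and Kcna4 at positions 3232, 3294 and 11406. Kcna5, of the ultrarapid current, was scarce, as given below.

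**Figure D1:**
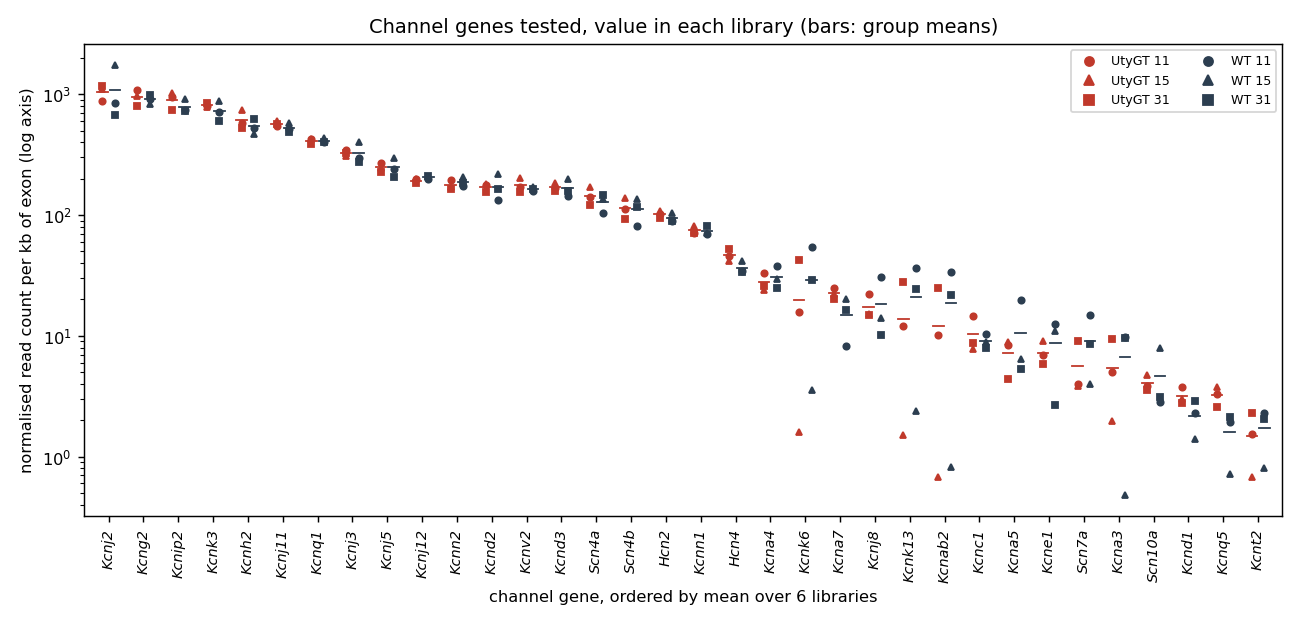
Each of 34 of the 40 tested channel genes is placed on the horizontal axis by its mean over 6 libraries, and the vertical axis (logarithmic) gives the normalised read count per kb of exon, with UtyGT in red, WT in dark blue, a marker shape for each number and bars for group means. Kcnj2 stands at the left with 1053 per kb in UtyGT and 1080 per kb in WT. The triangles of the number 15 libraries fall far below the others for Kcnk6, Kcnk13 and Kcnab2. Those of Kcna3, a gene with few reads that did not pass, also lie below the others.

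Between UtyGT and WT, no channel gene passed the test. By limma on log2(normalised read count + 1), with Benjamini-Hochberg adjustment over 16202 genes and a threshold of 0.05, 0 of 40 passed, where 0.00617% of all genes tested did, Uty alone. The edgeR test also called 0 of 40 (0.00617% of all genes), as did DESeq2 (0.0123%) and limma with the number as a block (0.0123%). At an unadjusted p under 0.05 there was 1 of 40 with limma (1.2% of all genes), 1 with edgeR (1.2%), 0 with DESeq2 (0.704%) and 0 with limma and the block (2.46%). Ddx3y, a Y-linked gene that the study reported as lowered in UtyGT, did not pass the main limma test. It had 230, 257 and 87.8 normalised read counts in UtyGT 11, 15 and 31, against 1334, 1143 and 1211 in WT. Its log2 fold change was −2.82 (SE 0.38), and it passed with the block (limma adjusted p = 0.0291). A gene that did not pass can thus still differ by a large amount. Log2 fold changes of UtyGT over WT were positive for 26 channel genes and negative for 14, with a median of 0.03. Of all genes tested, 48.6% were positive, with a median of −0.01. The normalised read counts of the groups did not overlap for 2 of 40 genes, Kcnq5 (higher in UtyGT) and Kcnj12 (lower in UtyGT), against 5.42% of all genes tested, 3.1% higher and 2.32% lower in UtyGT. Within pairs of equal number, 5 of 40 were higher in UtyGT in every pair and 2 were lower, against 8.51% and 8.89% of all genes.

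How small a difference could be seen depended on the read count. The 95% interval of the fold change lay within 2-fold in either direction for 26 of 40 genes (65%), against 76.3% of all genes tested. It lay within 1.5-fold for 19 (47.5%), against 54.3% of all genes. Among the 25 channel genes averaging 100 or more normalised read counts, the counts within 2-fold and 1.5-fold were 24 and 19. Among the 15 below 100 they were 2 and 0, so that differences of 1.5-fold were not resolved for the scarcer channels.

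**Figure D2:**
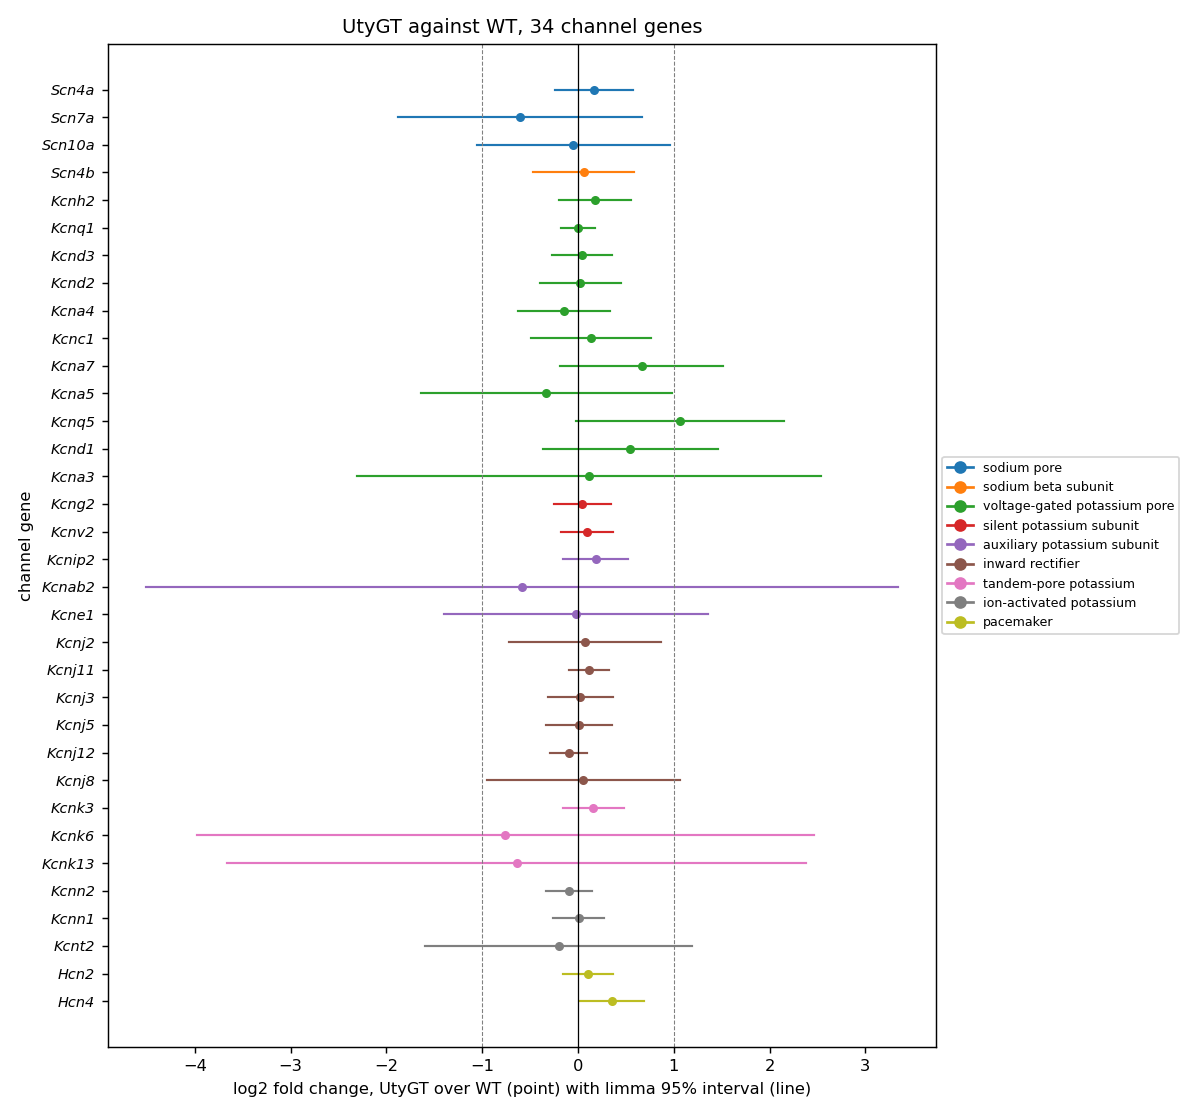
Points give the log2 fold change of UtyGT over WT for 34 of the 40 tested channel genes, grouped and coloured by role from top to bottom, and lines give the 95% interval of the limma fit (n = 3 each), with dashed lines at a 2-fold change in either direction. Every interval but that of Hcn4, which starts at 0.02, includes 0, and the widest are those of Kcnab2, Kcnk6 and Kcnk13.

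Among the sodium channel genes, Scn4a, for the skeletal muscle pore subunit, had a log2 fold change of 0.17 (SE 0.17), which was 0.017 without WT 11. Scn10a, known from sensory neurons, had 30.5, 37.6 and 28.2 normalised read counts in UtyGT 11, 15 and 31, against 22.5, 63.6 and 24.9 in WT 11, 15 and 31. Scn7a, for a sodium-sensing channel homologue, had 29.5, 28.2 and 66.9 in UtyGT, against 109, 29.5 and 62.7 in WT (log2 fold change −0.61, 95% interval −1.88 to 0.67). Its log2 fold change was −0.17 without WT 11 and −1.09 without WT 15. The groups overlapped in both genes. Summed normalised read counts of 7 fibroblast markers were 828, 831 and 2365 in UtyGT 11, 15 and 31, against 3712, 746 and 1519 in WT 11, 15 and 31, and their part in the values of Scn7a was not tested. Scn4b, for a beta subunit that modulates the pore, averaged 573 ± 116 in UtyGT and 554 ± 138 in WT (SD, n = 3 each). Scn2b, Scn3a and Scn3b had at most 10 reads in a library, and Scn1a, a neuronal pore gene, had 0 in all 6.

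Kcnd2 and Kcnd3, pore genes of the transient outward current, were present in like amounts per kb of exon. Before division by exon length they averaged 882 and 1619 normalised read counts over the 6 libraries. Kcnd2 and Kcnd3 each took close to an equal part of the Kcnd transcripts per kb, with 47.8% to 52.0% for Kcnd2 and 47.7% to 51.4% for Kcnd3 over the 6 libraries. Kcnd2 had 912, 934 and 799 normalised read counts in UtyGT 11, 15 and 31, against 686, 1120 and 842 in WT 11, 15 and 31, with the UtyGT values inside the WT range. Kcnd3 had 1616, 1768 and 1518 in UtyGT, against 1374, 1909 and 1528 in WT, again with the UtyGT values inside the WT range. Log2 fold changes were 0.02 (SE 0.18) for Kcnd2, which turned to −0.0060 with edgeR, and 0.04 (SE 0.13) for Kcnd3. Kcnip2, for the calcium-binding subunit that partners these pores, had 3269, 3564 and 2593 in UtyGT, against 2554, 3152 and 2549 in WT. Kcnip2 was higher in UtyGT in 3 of 3 pairs of equal number, but the groups overlapped and the log2 fold change of 0.19 (SE 0.14, 95% interval −0.15 to 0.52) did not pass. Kcna4, which carries the slowly recovering part of this current, averaged 134 ± 22.3 in UtyGT and 149 ± 30.9 in WT (SD, n = 3 each). Kcne3, for a single-span auxiliary subunit, had at most 4 reads in a library.

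Among the delayed rectifier genes, the difference between the groups was narrowly bounded for Kcnq1 and not for the scarce Kcna5 and Kcne1. Kcnq1, for the pore of the slow delayed rectifier, averaged 1695 ± 93.6 in UtyGT and 1694 ± 74.3 in WT, with a log2 fold change of 0.00 (SE 0.08, 95% interval −0.18 to 0.18) that turned to −0.0019 with edgeR and −0.0020 with DESeq2. Exons of Kcnq1 overlap those of Kcnq1ot1, a long non-coding RNA of the opposite strand with a mean of 4154 normalised read counts, over 121 bases. Kcnh2, for the pore of the rapid delayed rectifier, had 2786, 3608 and 2557 in UtyGT 11, 15 and 31, against 2545, 2272 and 3049 in WT 11, 15 and 31 (log2 fold change 0.18, SE 0.16), the highest of the 6 being UtyGT 15. Kcna5, for the ultrarapid current, was scarce at 20.7 ± 7.09 in UtyGT and 29.9 ± 22.9 in WT, with WT 11 alone at 56.3 (95% interval of the log2 fold change −1.64 to 0.98). Kcne1, the auxiliary subunit of Kcnq1, was also scarce at 23.3 ± 5.26 in UtyGT and 28.0 ± 17.0 in WT (SD, n = 3 each), with an interval of −1.40 to 1.36.

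The counting strand of the reads was not given in the sources used here. Of the 40 tested genes, 9 have exons that overlap a gene of the opposite strand, among them Kcnq1, Kcnk3 (with Gm9899) and Kcnd3 (with Kcnd3os), and reads of such pairs cannot be told apart if strand was ignored.

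The largest log2 fold change among the voltage-gated pore genes belonged to a scarce member. Kcnq5, known for a slowly activating current in neurons and smooth muscle, had 25.2, 29.1 and 19.9 normalised read counts in UtyGT 11, 15 and 31, against 15.004, 5.53 and 16.2 in WT 11, 15 and 31. Every UtyGT value was above every WT value. Its log2 fold change was 1.07 (SE 0.46, 95% interval −0.02 to 2.15) and did not pass (limma adjusted p = 1.00). Without WT 15, the lowest library, the log2 fold change of Kcnq5 was 0.62, and in the separate table of numbers 11 and 31 it was 0.50. Kcna7, a pore gene of skeletal muscle and heart, was higher in UtyGT in 3 of 3 pairs of equal number, with 49.2 ± 5.41 in UtyGT and 32.6 ± 13.5 in WT (log2 fold change 0.67, SE 0.36, and 0.30 without WT 11). Kcnd1 had a log2 fold change of 0.55 (SE 0.38, and 0.28 without WT 15), and its groups overlapped.

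The silent subunits, which do not form channels alone but join other voltage-gated pores, were represented by Kcng2 and Kcnv2. Kcng2 had 3224, 2904 and 2375 normalised read counts in UtyGT 11, 15 and 31, against 2744, 2498 and 2943 in WT 11, 15 and 31, so that the highest and the lowest library were both UtyGT. Kcnv2 had a log2 fold change of 0.10 (SE 0.11). Among the other 8 silent subunits, 5 had no read in any library.

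Of the inward rectifiers, Kcnj2, which carries the main strong inward rectifier current of the ventricle (ENSMUSG00000041695, GRCm38, plus strand of chromosome 11, 111066164 to 111076821), varied more than any other gene whose level per kb is given above, with the highest library at 2.59 times the lowest. It had 4791, 6046 and 6366 normalised read counts in UtyGT 11, 15 and 31, against 4571, 9431 and 3635 in WT 11, 15 and 31. WT 15 and WT 31 were the highest and the lowest of all 6 libraries, so that the UtyGT values lay within the WT range. A log2 fold change of 0.08 (SE 0.33, 95% interval −0.71 to 0.87) became −0.04 with edgeR and with DESeq2. Kcnj12, for a related strong inward rectifier, had 543, 542 and 504 in UtyGT, against 550, 565 and 582 in WT. Every UtyGT value of Kcnj12 was below every WT value, but by a small amount: the log2 fold change was −0.10 (SE 0.08, 95% interval −0.29 to 0.10) and did not pass (limma adjusted p = 1.00). Kcnj2 made up 75.9% to 89.4% of the sum of both genes per kb.

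The pore genes of the ATP-sensitive channel were unequal, with Kcnj11 at 94.4% to 97.9% of the sum of Kcnj11 and Kcnj8 per kb. Kcnj11 had 2021, 2195 and 2080 normalised read counts in UtyGT 11, 15 and 31, against 1905, 2141 and 1786 in WT 11, 15 and 31, higher in UtyGT in 3 of 3 pairs of equal number with overlapping groups (log2 fold change 0.11, SE 0.09, 95% interval −0.10 to 0.32). Kcnj3 and Kcnj5, which together form the channel opened by muscarinic receptors and are best known from atria and nodes, averaged 1701 ± 90.9 and 1162 ± 97.97 in UtyGT, against 1691 ± 346 and 1161 ± 220 in WT (SD, n = 3 each). Kcnj3 held 55.3% to 58.6% of the sum of both genes per kb. Kcnj4 had between 3 and 9 reads per library.

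Kcnk3, for an acid-sensitive background potassium channel, was the main tandem-pore gene and held 87.8% to 99.4% of the tandem-pore transcripts per kb. It had 3194, 3108 and 3355 normalised read counts in UtyGT 11, 15 and 31, against 2854, 3487 and 2397 in WT 11, 15 and 31 (log2 fold change 0.16, SE 0.14), and the WT range enclosed the UtyGT values. Without WT 31 the log2 fold change of Kcnk3 was 0.029, and without WT 15 it was 0.30. Its share was highest in the number 15 libraries, where the other measured tandem-pore genes, Kcnk6 and Kcnk13, had few reads. Kcnk2, a stretch-activated member, had between 1 and 10 reads per library.

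Kcnn2, a small-conductance calcium-activated channel, had 1453, 1275 and 1224 normalised read counts in UtyGT 11, 15 and 31, against 1294, 1548 and 1374 in WT 11, 15 and 31 (log2 fold change −0.09, SE 0.10). The groups overlapped. Kcnn3 had at most 9 reads in a library, and Kcnma1 and its beta subunit gene Kcnmb1, the large-conductance channel of smooth muscle, at most 5 and 4.

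Of the pacemaker genes, Hcn2 was more abundant than Hcn4, the main form of the sinus node, with Hcn2 at 64.4% to 72.8% and Hcn4 at 27.2% to 35.6% of the sum of both genes per kb. Hcn4 (ENSMUSG00000032338, GRCm38, plus strand of chromosome 9, 58823412 to 58863175) had 281, 255 and 322 normalised read counts in UtyGT 11, 15 and 31, against 210, 255 and 205 in WT 11, 15 and 31. UtyGT 11 and UtyGT 31 were above all WT libraries, while UtyGT 15 and WT 15 differed by less than 1 normalised read count. Its log2 fold change of 0.35 (SE 0.14, 95% interval 0.02 to 0.69) was the 1 counted above at an unadjusted p under 0.05, and did not pass (limma adjusted p = 1.00). With the number as a block the interval was −0.03 to 0.74. Hcn4 ranged from 0.26 to 0.54 over 17 alternatives, all positive. In bulk libraries, more cells of a type and more RNA per cell cannot be told apart. Of 7 markers of the conduction system, 5 were measured, 4 of them with a positive log2 fold change and none past the test, and Isl1 had no read in any library. Their summed normalised read count ranged from 1307 to 1418 in UtyGT and from 1147 to 1305 in WT, mostly Cacna1g, and their part in the values of Hcn4 was not tested. Hcn2 had a log2 fold change of 0.11 (SE 0.11) and was higher in UtyGT in 3 of 3 pairs of equal number, with overlapping groups. Of the 3 tested pacemaker genes, 2 had a positive and 1 a negative log2 fold change.

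Between the numbers, a few scarce channel genes differed by a large amount. In a limma F test of the 3 numbers with the group as a covariate, 3 of 40 channel genes (7.5%) passed, Kcnab2, Kcnk6 and Kcnk13, against 4.79% of all genes tested, and all 3 were lower in number 15. At an unadjusted p under 0.05 there were 6 of 40, against 9.57% of all genes. Lower in number 15 and past the test were 771 of the 776 genes in all, or 4.76% of those tested. Both number 15 libraries lay below the other 4 for 5 of 40 channel genes (12.5%), against 15% of all genes, and above them for 9 (22.5%), against 11.5%.

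Kcnab2 encodes an auxiliary beta subunit of Kcna pores with an aldo-keto reductase fold (ENSMUSG00000028931, GRCm38, minus strand of chromosome 4, 152390742 to 152477871). It had 3.76 normalised read counts in UtyGT 15 and 4.61 in WT 15, against 56.8 and 140 in UtyGT 11 and 31 and 188 and 122 in WT 11 and 31. Number 15 was 30.3-fold lower in the means. The log2 difference of number 15 from the mean of 11 and 31 was −4.51 (SE 0.42, 95% interval −5.46 to −3.56, limma F adjusted p = 0.00116).

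Kcnk6, for a tandem-pore channel of endosomes and the plasma membrane (minus strand of chromosome 7, 29221926 to 29232515), had 6.58 in UtyGT 15 and 14.7 in WT 15, against 65.2 and 176 in UtyGT 11 and 31 and 225 and 120 in WT 11 and 31. The log2 difference was −3.61 (SE 0.44, limma F adjusted p = 0.00403), and the adjusted p was 0.0545 without UtyGT 15. Kcnk13, a tandem-pore channel known from microglia (plus strand of chromosome 12, 99964499 to 100062682), had 4.70 in UtyGT 15 and 7.37 in WT 15, against 37.9 and 86.8 in UtyGT 11 and 31 and 113 and 75.6 in WT 11 and 31. Its log2 difference was −3.42 (SE 0.41, limma F adjusted p = 0.00378), and the adjusted p was 0.0588 without WT 15. In both genes, as in Kcnab2, the number 15 libraries did not overlap the other 4, and all 3 also passed with edgeR and with DESeq2. These are the same 3 genes whose intervals between UtyGT and WT were widest.

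Kcna3, the voltage-gated pore gene of lymphocytes and macrophages, had 3.76 in UtyGT 15 and 0.921 in WT 15, against 9.47 and 17.8 in UtyGT 11 and 31 and 18.8 and 18.4 in WT 11 and 31. Its log2 difference of −2.45 (SE 0.60) did not pass (limma F adjusted p = 0.144), but passed without UtyGT 11 (adjusted p = 0.0251). Leaving out UtyGT 11 gave 5 genes in all, with Kcna3 and Scn7a added, and leaving out UtyGT 31 gave 4, with Kcnj2 added. Leaving out UtyGT 15 gave 2, without Kcnk6, and leaving out WT 15 gave 2, without Kcnk13.

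The leukocyte markers moved with these genes. All 6 of 6 (Ptprc, Csf1r, Cd68, Lyz2, Mrc1 and Cd163) were measured in every library and passed the same test, lower in number 15, with a median log2 difference of −3.94. Their summed normalised read count was 563 in UtyGT 15 and 1216 in WT 15, against 6398 to 18307 in the other 4, and none of them was at 0 in any library. The sum of 7 fibroblast markers was 831 in UtyGT 15 and 746 in WT 15, against 828 to 3712 in the other 4, and 0 of 7 passed. All 7 were nonetheless lower in number 15, with a median log2 difference of −1.20. Endothelial markers were lower in 6 of 6 (median −0.19), and 0 passed. Of 7 mural markers, 3 were lower and 4 higher, and 0 passed. The part of these cell types in the values of Kcnab2, Kcnk6, Kcnk13 and Kcna3 was not tested. Over the same libraries Kcnk3, of the same family as Kcnk6 and Kcnk13, stayed between 2397 and 3487.

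**Figure D3:**
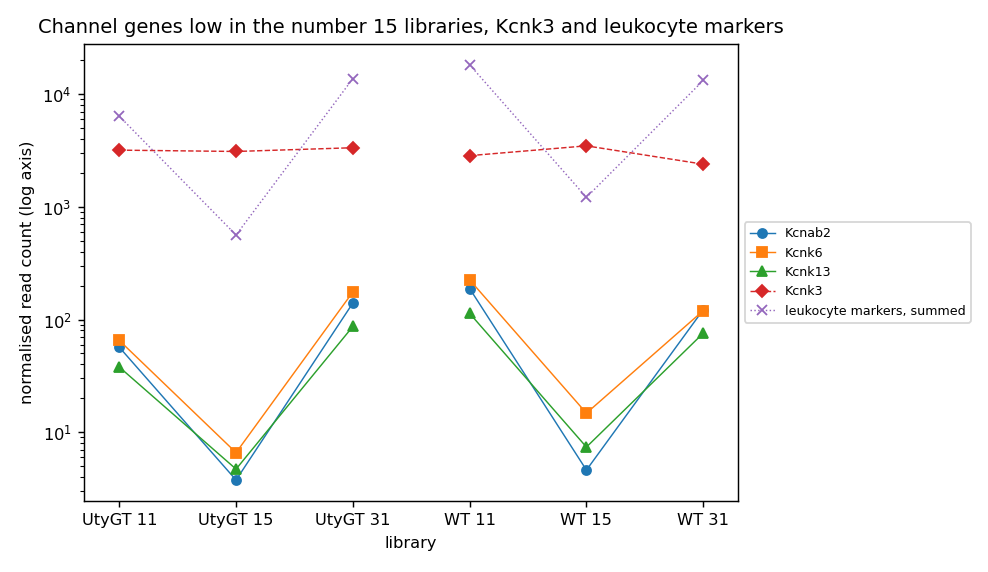
The normalised read count (logarithmic axis) of Kcnab2, Kcnk6 and Kcnk13 is drawn for each UtyGT and WT library beside Kcnk3 and the sum of 6 leukocyte markers, with lines joining libraries of 1 group only to guide the eye. Kcnab2, Kcnk6, Kcnk13 and the leukocyte sum have their lowest points in UtyGT 15 and WT 15, and Kcnk3 stays between 2397 and 3487.

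Promoter sequences are shown for Kcnab2 and Kcnk13, which passed the number test, and for Kcnj2, the most abundant per kb of the channel genes with a sequence to show. Each is the 250 bases before a transcription start annotated by RefSeq on GRCm38.p6, and for Kcnab2 it is the most upstream of 3 starts. Capitals mark GAGGAA or its reverse complement, a purine motif bound by ETS factors of leukocytes and of other cells, and the E-box CACGTG.
Kcnab2 (minus strand, chr4:152477550-152477799): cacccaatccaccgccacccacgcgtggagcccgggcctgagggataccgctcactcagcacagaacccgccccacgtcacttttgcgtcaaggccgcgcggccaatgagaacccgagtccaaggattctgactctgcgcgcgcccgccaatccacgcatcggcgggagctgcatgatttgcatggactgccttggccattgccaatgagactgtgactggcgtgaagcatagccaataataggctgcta
Kcnk13 (plus strand, chr12:99964249-99964498): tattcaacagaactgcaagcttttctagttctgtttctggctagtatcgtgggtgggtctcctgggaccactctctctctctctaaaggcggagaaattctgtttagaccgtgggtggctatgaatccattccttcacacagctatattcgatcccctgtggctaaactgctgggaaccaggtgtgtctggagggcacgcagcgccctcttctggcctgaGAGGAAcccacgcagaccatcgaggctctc
Kcnj2 (plus strand, chr11:111065914-111066163): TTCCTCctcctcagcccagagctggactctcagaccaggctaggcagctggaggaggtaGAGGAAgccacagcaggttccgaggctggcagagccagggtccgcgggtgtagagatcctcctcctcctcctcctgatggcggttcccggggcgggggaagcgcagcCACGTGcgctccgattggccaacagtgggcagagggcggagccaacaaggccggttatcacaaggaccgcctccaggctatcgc
GAGGAA occurred once in the window of Kcnk13, in none of the 3 windows of Kcnab2 and at 2 places in that of Kcnj2. On either strand it was found in 6 of 29 windows of the 25 tested channel genes with a promoter in the RefSeq set (Kcna3, Kcna5, Kcnj12, Kcnj2, Kcnk13 and Kcnq5), and in 23.3% of 32851 promoters of all genes over the same length. CACGTG was found in 1 of the 29 windows, that of Kcnj2, and in 6.02% of all promoters. TATAAA, the TATA box, was found in 0 of the 29 windows, and in 12.4% of all. These are matches of letters and do not show that a factor binds.

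Most of the other channel genes did not share the low values of number 15. Scn10a had 37.6 in UtyGT 15 and 63.6 in WT 15, against 30.5 and 28.2 in UtyGT 11 and 31 and 22.5 and 24.9 in WT 11 and 31 (log2 difference 0.87). Scn4b, a sodium channel beta subunit, had 693 in UtyGT 15 and 680 in WT 15, against 564 and 461 in UtyGT 11 and 31 and 407 and 576 in WT 11 and 31. Neither gene passed, although number 15 was above the other 4 libraries in both. The same held for Kcnj11, Kcnd3, Kcnd2 and Hcn2, with log2 differences from 0.16 to 0.34. The number 15 value of Kcnj2 was high in WT only, with a log2 difference of 0.13 in UtyGT and 1.21 in WT. Kcne1 had a log2 difference of 0.67 (SE 0.45) and Kcnt2, a sodium-activated potassium channel gene, one of −1.29 (SE 0.48), and neither passed.

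**Figure D4:**
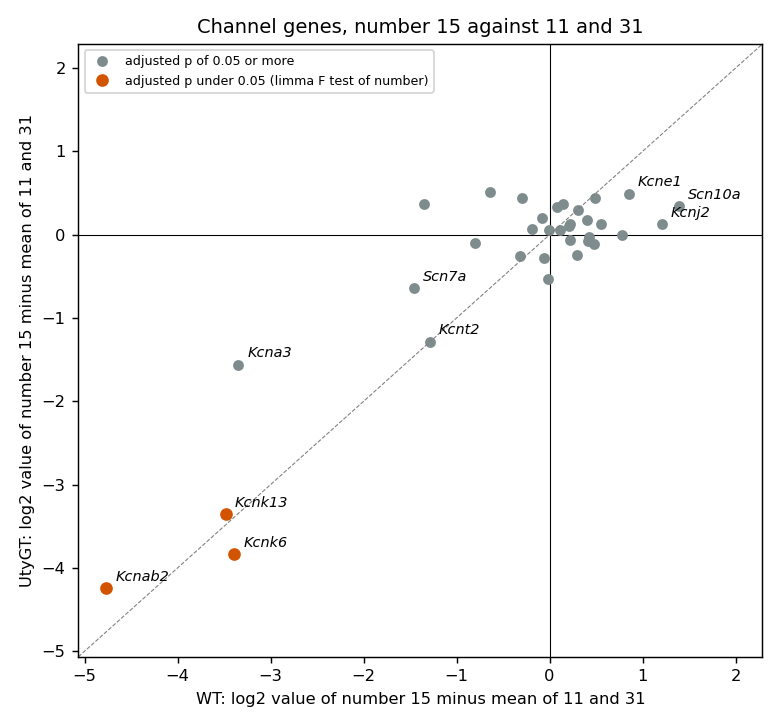
Each point is 1 of 34 of the 40 tested channel genes, placed by its log2 value in number 15 minus the mean of numbers 11 and 31 in UtyGT (vertical axis) and in WT (horizontal axis), with orange points for the 3 genes past the limma F test and a dashed line of equal differences. Kcnab2, Kcnk6 and Kcnk13 lie at the lower left in both groups, at −3.36 or lower, and most other genes lie near 0.

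No gene for the partners of these channels passed the test between the groups. Of 38 listed genes for associated subunits, anchors, regulators and other ion transporters, 36 were measured, 0 passed by limma, 21 had a positive and 15 a negative log2 fold change, and the median was 0.03. Ankyrin genes Ank2 and Ank3, which hold sodium channels at the membrane, had log2 fold changes of 0.05 (SE 0.11) and −0.01 (SE 0.13). The sulfonylurea receptors Abcc8 and Abcc9, which complete ATP-sensitive channels, had −0.06 (SE 0.08) and −0.02 (SE 0.14). Fgf12, for an intracellular modulator of sodium channels, had the largest difference of the list, with 2.10, 0 and 7.32 normalised read counts in UtyGT 11, 15 and 31, against 25.3, 46.1 and 10.8 in WT 11, 15 and 31. Its groups did not overlap, and its log2 fold change of −3.05 (SE 0.89) did not pass (limma adjusted p = 1.00). The groups also did not overlap for Gpd1l (log2 fold change 0.11, SE 0.08) and Cav3 (0.13, SE 0.09), each higher in UtyGT. Among all genes tested, 5.42% had groups that did not overlap. Log2 fold changes of the atrial markers were negative in 7 of 7 (median −1.57), none was at 0 in all libraries, and the range of their sum was 689 to 1288 in UtyGT and 1151 to 3337 in WT. The part of atrial RNA in the values of Fgf12 was not tested.

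The members that were not tested had few reads or none. Of the 54 genes with reads below the minimum, 26 had at most 3 reads in every library, and the highest count in a library was 21. The 17 genes with no read, among them the neuronal sodium channel genes Scn1a, Scn9a and Scn11a, allow up to 3 reads per library, or 2.76 to 3.24 normalised read counts, so that lower levels were not detectable at this depth. Such floors cover counting error only.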

How the data were processed

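Per the labels and the study's methods, the authors used CASAVA 1.4 for base calls, STAR 2.5.1b for alignment to GRCm38, featureCounts 1.6.0 with an Ensembl annotation for counting and DESeq2 1.22.2 for testing. Whether counting used strand is not given in the sources used here. The deposited value of each library is a signal in normalised read counts, which are reads of a gene over 1 size factor per library, with no scaling to gene length. Beside them stand the authors' mean signal and the columns of their own test, none of which was used. These deposited columns are log2 fold changes of WT over UtyGT with standard errors, a Wald score, a p-value and an adjusted p-value. A second deposited table of normalised read counts holds the 4 libraries of numbers 11 and 31, normalised on their own.

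In each library 100% of values were whole multiples of the value of 1 read (tolerance 0.0001 reads), so reads were recovered for count tests. Gene reads per library ranged from 18204752 to 23252887. UtyGT and WT were compared with limma-trend (limma 3.58.1, R 4.3.3) on log2(normalised read count + 1) over 16202 genes with a mean of at least 10. A fold change on that scale understates the change of scarce genes. Tests were two-sided, adjusted by Benjamini-Hochberg over all genes tested, with a threshold of 0.05. The limma F test of numbers had the group as a covariate. On the recovered reads, edgeR 4.0.16 called 1 gene and DESeq2 1.42.0 called 2 genes between the groups, and 627 and 842 genes between the numbers. Tools were tested on simulated data.

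Libraries of equal number were taken as pairs by their label. Their deviations from the group means correlated across genes at 0.25 for number 11, 0.80 for number 15 and 0.41 for number 31. Across numbers, UtyGT 31 with WT 11 gave 0.73 and UtyGT 11 with WT 31 gave 0.41. Crossed pairs that held a number 15 library were all negative. The deviations thus set number 15 apart, but do not tell equal from crossed pairs for numbers 11 and 31. The second table, which leaves out number 15, is named for a day effect, but no label gives the day of a number.

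The channel genes, partner and marker lists were chosen with earlier results of these data known. Genes named were those with a set role in cardiac currents, the 5 with the smallest p in each direction, the 5 with the largest and the 5 with the smallest number 15 difference, the 10 with the highest level per kb, and those that passed. A few others are named with a count or an overlap, chosen after their values were seen. Some channel genes and markers are not reported here by name. Exon lengths and positions are from GENCODE M21 on GRCm38, which held all 111 genes. Alternatives were the number as a block, edgeR and DESeq2 with and without it, pseudocounts of 0.5 and 5, no filter, TMM and quantile scaling, the 4-library table, and each library left out.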

Additional observations from a re-analysis of the deposited data

How the results depend on the processing

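Between UtyGT and WT, 0 channel genes passed under each of 17 alternatives. With the replicate block, which treats libraries of equal number as pairs, 0 of 40 passed, and 0 had an unadjusted limma p under 0.05, where 2.46% of all genes did. The paired fit changed no call for a channel gene. Of the 31 genes named in that comparison, 11 kept the sign of their log2 fold change under all 17 alternatives and 20 changed it in at least 1, all of them without passing in any. Signs turned in the 4-library table for Kcne1 (0.10), Kcnh2 (−0.056), Kcnn2 (0.0056), Scn10a (0.30), Kcna3 (−0.47), Kcng2 (−0.033). Signs turned with DESeq2 for Kcnd2 (−0.0044), Kcnq1 (−0.0020), Kcnj2 (−0.038), Kcnj5 (−0.0022), Kcnj8 (−0.078), Kcna3 (−0.30). Signs turned with edgeR for Kcnd2 (−0.0060), Kcnq1 (−0.0019), Kcnj2 (−0.044), Kcnj5 (−0.0031), Kcnj8 (−0.075), Kcna3 (−0.29). Signs turned with quantile scaling for Kcnq1 (−0.015), Kcne1 (0.17), Scn10a (0.055). Signs turned with TMM scaling for Kcnq1 (−0.0026). Signs turned with a pseudocount of 5 for Kcna3 (−0.063). Signs turned with DESeq2 and the replicate block for Kcnq1 (−0.0025). Signs turned with edgeR and the replicate block for Kcnq1 (−0.0025), Kcna3 (−0.17). Leaving out 1 library at a time gave these ranges for genes that changed sign: Kcna3 (−1.0003 to 0.68), Kcna4 (−0.28 to 0.010), Kcna5 (−0.68 to 0.23), Kcnab2 (−2.17 to 0.83), Kcnd2 (−0.14 to 0.21), Kcnd3 (−0.067 to 0.17), Kcne1 (−0.69 to 0.36), Kcng2 (−0.052 to 0.17), Kcnj2 (−0.21 to 0.48), Kcnj3 (−0.082 to 0.19), Kcnj5 (−0.11 to 0.16), Kcnj8 (−0.28 to 0.50), Kcnk13 (−1.80 to 0.48), Kcnk6 (−1.89 to 0.52), Kcnq1 (−0.026 to 0.047), Kcnt2 (−0.63 to 0.23), Scn10a (−0.31 to 0.42), Scn4b (−0.15 to 0.22). For genes that changed sign under no alternative, the ranges with 1 library left out were Hcn2 (0.065 to 0.18), Hcn4 (0.26 to 0.45), Kcna7 (0.30 to 0.93), Kcnd1 (0.28 to 0.75), Kcnip2 (0.088 to 0.32), Kcnj11 (0.055 to 0.19), Kcnj12 (−0.12 to −0.061), Kcnk3 (0.029 to 0.30), Kcnq5 (0.62 to 1.32), Scn4a (0.017 to 0.29), Scn7a (−1.09 to −0.17). With 1 library left out of the number test, the number that kept 1 library was assumed to vary like the others.

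Between the numbers, 3 channel genes passed with every tool, scaling, filter and pseudocount tried, and from 2 to 5 when 1 library was left out. The direction of the 9 genes named for that test was the same under all 13 alternatives. The median log2 fold change of all genes was −0.01 with TMM and 0.01 with quantile scaling. Few libraries, and counts below 100 for 15 of the 40 genes, limit what was seen.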
